A study of Mus musculus with 8 samples.

Results

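The miRNA cluster that runs from miR-17 to miR-92a was examined in mouse liver during CCl4 injury. Its members were chosen by name: the assays for miR-17, miR-18a, miR-19a, miR-20a, miR-19b and miR-92a, without the star strands, which make 6 of the 381 small RNA assays listed on the card. All 6 had a determined threshold cycle (Ct) on all 8 cards, with mean Ct values below 35, and all 6 were among the 166 assays tested. The mice were female C57B6 animals, 4 weeks of age when treatment began. Untreated liver was compared with liver after 1, 4 or 8 weeks of intraperitoneal CCl4 in corn oil, given biweekly at 1 mg/kg according to the labels, with 2 cards per group. Carbon tetrachloride is a solvent that injures hepatocytes and leads to scarring when dosing is repeated. Untreated mice are not described as having received corn oil, so the oil and the CCl4 cannot be told apart. The labels do not say whether the 2 cards of a group came from separate mice, so p-values measure the spread between cards, which may be technical.

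The cluster is transcribed as a single long precursor, from the noncoding host gene Mir17hg, and is processed into 6 hairpins. Its mature miRNAs repress messenger RNAs through a short 5′ seed and are best known from proliferating cells, where Myc and E2f factors raise their transcription and where targets such as the pro-apoptotic Bcl2l11 are held down. The set falls into 4 seed families, so members made from the same transcript can have different targets while members with the same seed can be made from different loci.

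The mature sequences are shown because the readings of 2 assays can only be told apart as far as their targets differ. They are RefSeq sequences of mouse assembly GRCm38.p6, written 5′ to 3′ in genomic order along chromosome 14, where the 6 hairpins lie within 836 bases of the plus strand; capitals mark the seed, bases 2 to 8.
miR-17: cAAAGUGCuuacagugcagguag
miR-18a: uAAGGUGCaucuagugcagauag
miR-19a: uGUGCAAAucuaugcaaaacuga
miR-20a: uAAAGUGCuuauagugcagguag
miR-19b: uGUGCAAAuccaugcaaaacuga
miR-92a: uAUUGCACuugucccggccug
miR-17 and miR-20a have the seed AAAGUGC, miR-19a and miR-19b have GUGCAAA, and miR-18a (AAGGUGC) and miR-92a (AUUGCAC) are each alone within the cluster. Counting positions from the 5′ end, miR-20a differs from miR-17 by C1U and C12U, and miR-19b differs from miR-19a by U11C alone.

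The related miRNAs of 2 other clusters are shown for the same reason, since 5 of them were also tested.
miR-106a: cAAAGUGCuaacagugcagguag
miR-20b: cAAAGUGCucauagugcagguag
miR-106b: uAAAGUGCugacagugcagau
miR-93: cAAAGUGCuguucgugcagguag
miR-25: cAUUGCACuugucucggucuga
miR-106a and miR-20b come from a cluster of 6 hairpins on the X chromosome, and miR-106b, miR-93 and miR-25 from 3 hairpins inside Mcm7, a gene for a replication helicase subunit, on chromosome 5. miR-106a differs from miR-17 by U10A alone. The X chromosome cluster holds second copies of the miR-19b and miR-92a hairpins whose mature strands have 0 differences from those of the chromosome 14 copies, so these 2 assays read both loci together.

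Depth and scale differed between cards. Between 193 and 235 assays had a Ct on a card, and the mean Ct of the 149 assays that stayed below Ct 35 throughout ran from 27.5 on the first 8 week card to 29.8 on the second 4 week card. Each value below is that card mean minus the Ct of the assay, a log2 scale on which 1 unit is a doubling, and ratios are linear and relative to the mean of the untreated cards. Ct values of different assays depend on how well each assay amplifies, so a Ct difference between 2 assays was read only for how it changed from card to card, and sums over a list of assays weigh most the assays read at the lowest Ct. miR-122, the defining miRNA of hepatocytes, was determined on every card.

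Of the members' 18 differences from untreated liver, 2 passed the test: miR-20a was lower at 1 week and miR-18a was higher at 4 weeks. miR-20a, which carries the AAAGUGC seed that is best known for repressing cell cycle inhibitors such as Cdkn1a, was read at Ct 25.61 and 25.16 on the untreated cards and at 26.95 and 27.46 on the 1 week cards. Its ratios were 0.967 and 1.03 in untreated liver, 0.511 and 0.319 after 1 week, 1.39 and 0.747 after 4 weeks, and 0.824 and 0.710 after 8 weeks. Both 1 week cards lay below all 6 other cards, while the 4 week cards lay on either side of the untreated ones. At 1 week miR-20a fell by 1.31 on the log2 scale (SE 0.39, limma adjusted p = 0.0362), a difference that was 0.085, of opposite sign, when cards were scaled to snoRNA202 alone. It was called under 13 of 18 other settings and in 4 of 8 fits without 1 card. It was not called without either untreated card or without either 1 week card, where the difference was between -1.65 and -0.97. At 4 and 8 weeks it did not pass the test, with log2 differences of 0.03 (limma adjusted p = 0.980) and -0.39 (limma adjusted p = 0.497).

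U6 and snoRNA202, small RNAs on the card that can be used for scaling, themselves had different values between the groups. U6 had a mean ratio of 5.30 ± 1.48 (SD, n = 2) after 1 week and 0.353 ± 0.0173 (SD, n = 2) after 4 weeks, and snoRNA202 a mean ratio of 0.381 ± 0.00780 (SD, n = 2) after 1 week. snoRNA135, the third such RNA, was not called at 1, 4 or 8 weeks, with mean ratios of 0.831, 0.992 and 0.966. With snoRNA135 alone, neither the 1 week call of miR-20a nor the 4 week call of miR-18a was made. Scaling to U6 alone moved the median of all 166 assays at 1 week to -2.47, and scaling to snoRNA202 alone moved it to 1.30, against -0.09 with the card mean. Relative to that median, miR-20a stood at -1.22 at 1 week, a value that no scaling by a single number per card can change. It stood at -0.79 after quantile normalization, at -1.04 with assays of a mean Ct below 32 and at -1.335 with undetermined values at Ct 40.

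The other call was in miR-18a, the only member with the AAGGUGC seed. It had the highest Ct values of the 6, at 33.94 and 33.21 on the untreated cards, 32.76 and 33.90 after 1 week, 31.84 and 33.99 after 4 weeks, and 32.11 and 33.76 after 8 weeks. Its ratios were 0.878 and 1.14 in untreated liver, 2.66 and 1.07 after 1 week, 3.53 and 2.28 after 4 weeks, and 1.72 and 1.44 after 8 weeks. The cards of 4 and 8 weeks all lay above both untreated cards, and of the 1 week cards only the first did. At 4 weeks miR-18a rose by 1.51 (SE 0.47, limma adjusted p = 0.0457), and the difference ran from 0.66 without normalization to 3.01 with U6 alone under the 17 other settings that tested it (limma adjusted p from 0.0104 to 0.720), with 1.002 after quantile normalization. The call was made under 8 of these 17 and in 2 of 8 fits without 1 card, those without a 1 week card. Without either untreated card, either 4 week card or either 8 week card it was not called, with differences between 1.19 and 1.82. The differences at 1 week (0.76, limma adjusted p = 0.237) and 8 weeks (0.65, limma adjusted p = 0.367) did not pass the test. Without 1 card the 1 week difference ran from 0.10 to 1.41. These Ct values lie near the limit of 35, and its replicate spread of 0.54 was above the median of 0.39 over all assays.

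**Figure D1:**
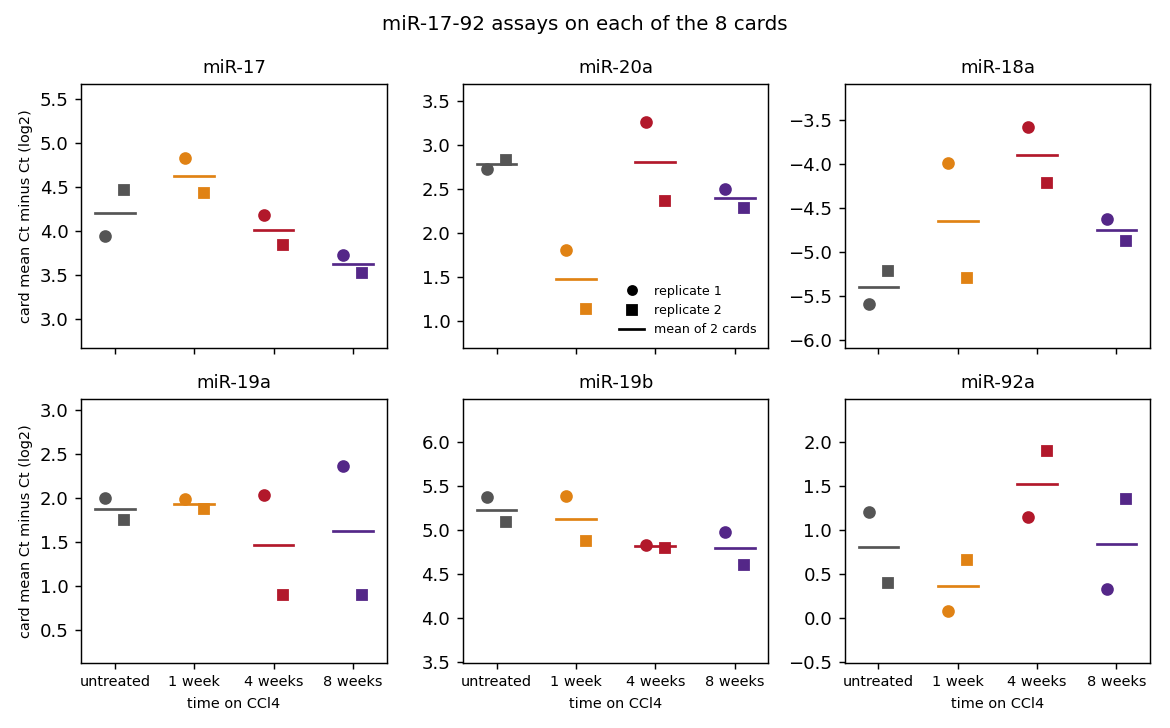
The card mean Ct minus the Ct of each cluster assay (y axis, log2) is plotted against time on CCl4 (x axis), with a symbol for each of the 2 cards per group and a line at their mean; all panels span the same range. The 2 cards of miR-20a at 1 week lie below the 6 other cards, and the 2 cards of miR-18a at 4 weeks lie above both untreated cards.

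miR-17, the member that shares its seed with miR-20a, did not pass the test at any time. Its ratios were 0.833 and 1.20 in untreated liver, 1.54 and 1.17 after 1 week, 0.983 and 0.782 after 4 weeks, and 0.719 and 0.624 after 8 weeks. Both 8 week cards lay below all other cards, and the 1 week cards overlapped the untreated ones. The log2 differences from untreated were 0.43 after 1 week (limma adjusted p = 0.312), -0.19 after 4 weeks (limma adjusted p = 0.689) and -0.58 after 8 weeks (limma adjusted p = 0.272), each with an SE of 0.32.

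miR-19a and miR-19b share the GUGCAAA seed, and neither passed the test at any time. miR-19a had ratios of 1.09 and 0.916 in untreated liver, 1.08 and 0.999 after 1 week, 1.11 and 0.509 after 4 weeks, and 1.40 and 0.507 after 8 weeks. Its cards were close together in untreated liver and at 1 week, and far apart at 4 and 8 weeks, where the second card was the lower one each time. Its log2 differences from untreated were 0.06, -0.41 and -0.25 at 1, 4 and 8 weeks (SE 0.55, limma adjusted p = 0.964, 0.608 and 0.797).

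miR-19b had ratios of 1.10 and 0.906 in untreated liver, 1.11 and 0.781 after 1 week, 0.758 and 0.742 after 4 weeks, and 0.841 and 0.648 after 8 weeks. All 4 cards at 4 and 8 weeks lay below the untreated cards, with a replicate SD of 0.24 that was the smallest among the members. The log2 differences were -0.10, -0.41 and -0.44 at 1, 4 and 8 weeks (SE 0.31, limma adjusted p = 0.828, 0.336 and 0.367).

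miR-92a, of the AUUGCAC family known for acting on integrin messages in endothelial cells, had ratios of 1.32 and 0.757 in untreated liver, 0.608 and 0.903 after 1 week, 1.27 and 2.14 after 4 weeks, and 0.722 and 1.47 after 8 weeks. Every treated group overlapped the untreated cards. The log2 differences were -0.43, 0.72 and 0.04 at 1, 4 and 8 weeks (SE 0.49, limma adjusted p = 0.492, 0.289 and 0.951).

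**Figure D2:**
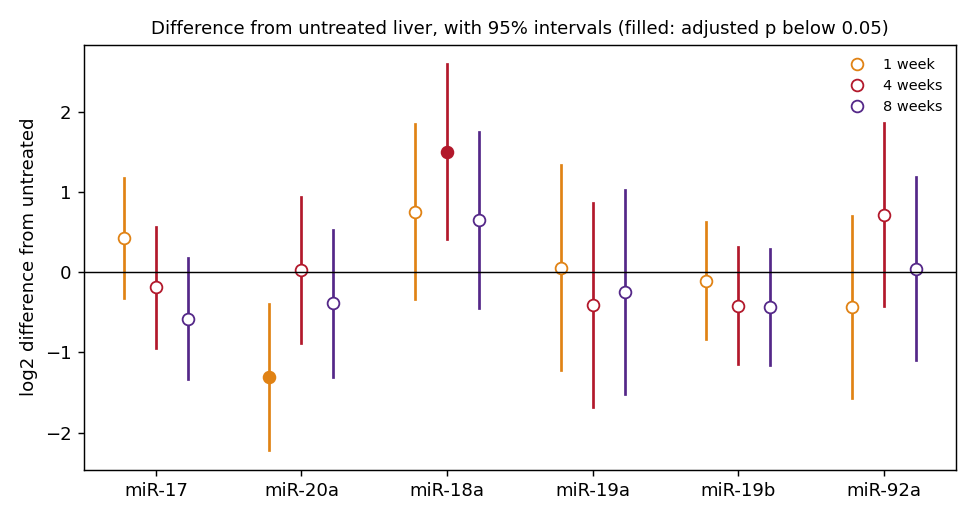
Points give the log2 difference from untreated liver (y axis) for each member (x axis) at 1, 4 and 8 weeks, with 95% intervals from limma over 2 cards per group; filled points passed an adjusted p of 0.05. Filled points are miR-20a at 1 week, at -1.31 (0.085 when scaled to snoRNA202 alone), and miR-18a at 4 weeks, at 1.51.

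Across the cluster, few members were called at any time. At 1 week 1 of 6 members was called, lower, where 32.5% of all tested assays were called and 14.5% were called lower. At 4 weeks 1 of 6 was called, higher, where 30.1% of all assays were called and 13.3% were called higher. At 8 weeks limma called 0 of 6 after adjustment and 0 at an unadjusted p below 0.05, where 3.01% of all assays were called and 40 of 166 had such an unadjusted p. With 6 members, 1 call is a share below that of all calls and near that of calls in its own direction.

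Counts of members whose 2 treated cards did not overlap the untreated ones were 1 of 6 after 1 week, 2 of 6 after 4 weeks and 4 of 6 after 8 weeks, against 76.5%, 68.1% and 60.8% of all assays. The members' share was below that background at 1 and 4 weeks and near it at 8 weeks. The median log2 difference of the members was -0.02 after 1 week, -0.08 after 4 weeks and -0.32 after 8 weeks, beside -0.09, 0.03 and -0.04 over all 166 assays. Without 1 card the members' median ran from -0.16 to 0.13, from -0.39 to 0.25 and from -0.56 to -0.21 at these times, so its sign was not settled at 1 and 4 weeks. At 8 weeks it ran from -0.39 to 0.795 under the 18 other settings, so its sign was not settled there either. Of the 18 differences of the members from untreated liver, 12 lay within 0.5 of untreated, or 66.7%, where 33.3% of the differences of all assays did. In whole liver, fewer cells of a type and less RNA per cell cannot be told apart.

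**Figure D3:**
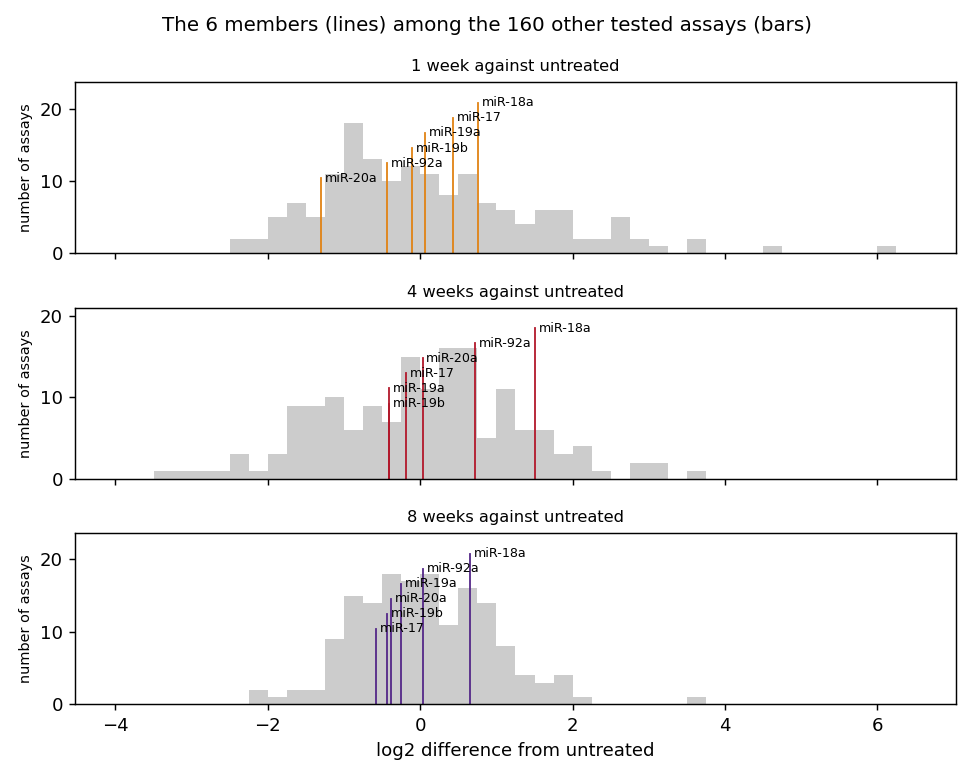
Bars count the 160 tested assays outside the cluster by their log2 difference from untreated (x axis), and lines mark the 6 members, at 1, 4 and 8 weeks from top to bottom; line heights only separate the names. The members lie between -1.31 and 0.76 at 1 week, between -0.41 and 1.51 at 4 weeks and between -0.58 and 0.65 at 8 weeks.

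Between the treated groups, 1 difference of a member was called. From 1 to 4 weeks miR-20a rose by 1.34 (limma adjusted p = 0.0270), the single call among 6 members where 47% of all assays were called and 21.7% called higher, and the call was lost under 7 of 18 other settings, where the difference lay between 0.34, with snoRNA202 alone, and 1.47. It was also lost without the second 1 week card (1.00) or without the first 4 week card (0.89). The difference of miR-92a over the same interval was 1.15 (limma adjusted p = 0.0849). From 1 to 8 weeks limma called 0 of 6 members after adjustment and 2 at an unadjusted p below 0.05, where 24.1% of all assays were called and 70 of 166 had such an unadjusted p. The 2 members were miR-17, at -1.005 (limma adjusted p = 0.0561), and miR-20a, at 0.92 (limma adjusted p = 0.115), and their differences had opposite signs. From 4 to 8 weeks 0 of 6 were called, and 0 at an unadjusted p below 0.05, where 1.2% of all assays were called and 27 of 166 had such an unadjusted p.

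With the 3 treated groups averaged against untreated, limma called 0 of 6 members, where 28.9% of all assays were called, and 1 member had an unadjusted p below 0.05, as did 64 of 166 assays. The member was miR-18a, with a log2 difference of 0.97 (limma adjusted p = 0.101). By limma's F test for any difference among the 3 times and untreated liver, 0 of 6 members were called, where 54.2% of all assays were; the smallest adjusted p was that of miR-20a, 0.0564, and 1 member was at an unadjusted p below 0.05, as were 104 of 166 assays.

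Ordered by group mean, miR-20a was highest after 4 weeks, then in untreated liver, then after 8 weeks and lowest after 1 week. Its 4 week and untreated cards overlapped, and the steps from untreated to 8 weeks (0.39) and from there to 1 week (0.92) separated the cards, the first being smaller than its replicate SD of 0.41. miR-18a was highest after 4 weeks, then after 1 week, 8 weeks and in untreated liver, and only the last step separated the cards of neighbouring groups. miR-17 ran from 1 week through untreated and 4 weeks to 8 weeks, with only the cards at 4 and 8 weeks apart. In miR-19b only the step from 1 week to 4 weeks separated cards, and in miR-19a and miR-92a cards overlapped at every step.

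Members were next set against each other on the same card, which removes the scaling of the card. miR-17 over miR-20a, a comparison of 2 targets with the same seed, gave Ct differences of 1.20 and 1.63 in untreated liver, 3.01 and 3.29 after 1 week, 0.91 and 1.48 after 4 weeks, and 1.22 and 1.23 after 8 weeks. Both 1 week cards stood above the 6 other cards, and the group mean was 3.15 at 1 week against 1.42 in untreated liver, with a replicate SD of 0.27 pooled over the groups. The fit to each member's departure from the mean of the 6 members, tested across the same 166 assays, gave miR-20a a difference of -1.21 at 1 week (SE 0.36, limma adjusted p = 0.0381) and miR-17 one of 0.53 (limma adjusted p = 0.275). In that fit 1 of 6 members was called at 1 week, where 26.5% of all assays were called. The members are part of that mean and the other assays are not, so shares of all assays in this fit are not a like background. A fall of miR-20a also lowers that mean and so raises the departures of the other members.

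The departure of miR-18a from the cluster was called at another time. At 1 and 8 weeks its departures were 0.86 (limma adjusted p = 0.163) and 0.81 (limma adjusted p = 0.275), which did not pass the test. Its difference from the cluster mean was 1.30 at 4 weeks (SE 0.41, limma adjusted p = 0.0403), the single call among 6 members where 29.5% of all assays were called. The departures of miR-20a at 4 and 8 weeks were -0.18 (limma adjusted p = 0.745) and -0.23 (limma adjusted p = 0.727). From 1 to 4 weeks miR-20a rose by 1.03 against the cluster mean (limma adjusted p = 0.0454), the single call among members where 41.6% of all assays were called. Left out 1 at a time, cards ended these calls often. The call of miR-20a after 1 week was made only in the 2 fits without a 4 week card (differences from -1.34 to -1.07 over the 8 fits), that of miR-18a after 4 weeks only in the 2 fits without a 1 week card (1.08 to 1.52), and that of miR-20a from 1 to 4 weeks in 0 of 8 (0.77 to 1.29). The exact two-sided permutation test of 2 cards against 2 cannot give a p below 0.333, so no pair of members was tested by it.

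The Ct difference between miR-17 and miR-18a on the same card narrowed after 4 and 8 weeks. The Ct differences of miR-17 over miR-18a were 9.53 and 9.68 in untreated liver, 8.82 and 9.73 after 1 week, 7.76 and 8.06 after 4 weeks, and 8.35 and 8.40 after 8 weeks. The cards at 4 and 8 weeks all stood below the untreated ones, so that miR-18a gained on miR-17 by 1.70 and 1.23 on average. At 4 weeks the difference of miR-18a from untreated was 1.51 and that of miR-17 was -0.19, while at 8 weeks they were 0.65 and -0.58. Of these values only the Ct differences between the 2 assays are the same under every centring by a single number per card.

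**Figure D4:**
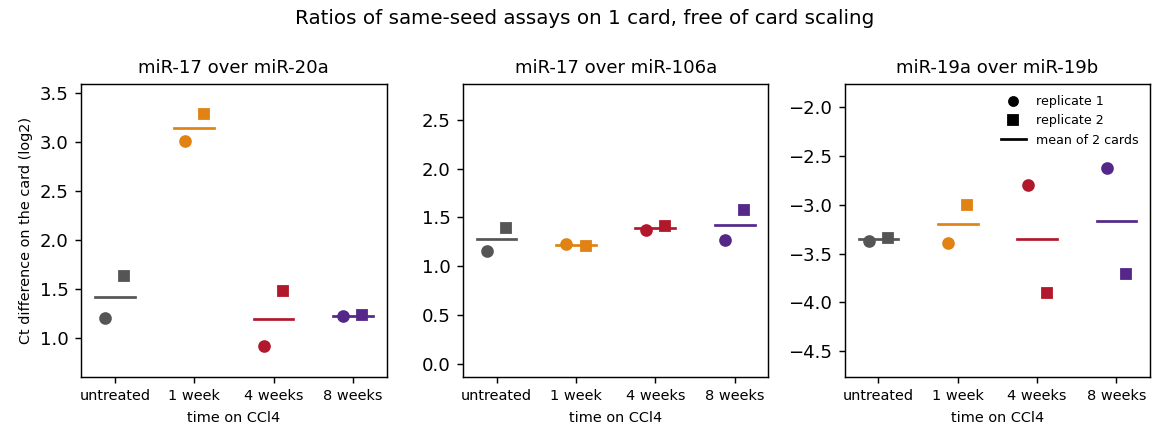
Ct differences between 2 assays on the same card (y axis, log2) are plotted by time on CCl4 (x axis), with a symbol for each of the 2 cards per group and a line at their mean; all panels span the same range. miR-17 over miR-20a is at 3.01 and 3.29 at 1 week and between 0.91 and 1.63 on the 6 other cards, while miR-17 over miR-106a stays within 0.42 over all 8 cards.

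Profiles over the 8 cards, each centred on the assay's own mean, were compared by their root-mean-square difference, as a description without a test. Over the 15 pairs of members the median was 0.747, from 0.337 for miR-17 and miR-19b to 1.00 for miR-19a and miR-92a. Over all 13695 pairs of tested assays the median was 0.999. Each member's median to the 165 other tested assays also lay below 0.999, from 0.728 for miR-19b to 0.97 for miR-18a. A value below 0.999 was therefore not particular to pairs of members, and 0.747 lay within the range of these medians. The pairs with a common seed lay on either side of 0.747, with 0.837 for miR-17 and miR-20a and 0.409 for miR-19a and miR-19b. All points share the cards and their centring.

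The profile nearest to miR-17 was that of miR-106a, at 0.128, where the median over 165 candidates was 0.779. Nearest to miR-20a was miR-98 (0.298), to miR-18a miR-214 (0.420), to miR-19a miR-340-5p (0.172), to miR-19b miR-143 (0.228) and to miR-92a miR-671-3p (0.324). For none of the 6 was another member the nearest. The mean of the 6 members lay nearest to miR-130b (0.197), miR-93 (0.219) and miR-21 (0.248), where the median over 160 candidates was 0.716.

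Card by card, the values of miR-17 and miR-106a restate their likeness, since miR-106a was picked as nearest on these same cards. miR-106a had ratios of 0.902 and 1.11 in untreated liver, 1.59 and 1.23 after 1 week, 0.920 and 0.712 after 4 weeks, and 0.722 and 0.505 after 8 weeks. The Ct difference between the 2 assays ran from 1.16 to 1.58 on the 8 cards, a range of 0.42, where that between miR-17 and miR-20a had a range of 2.38. The targets of the first pair differ at 1 position and those of the second at 2. How far either assay reads the other target was not tested.

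miR-106a did not have the miR-20a pattern. miR-20a over miR-106a was -0.04 and -0.24 in untreated liver and -1.78 and -2.08 at 1 week, and from -0.07 to 0.46 on the 4 later cards. Against miR-93, which is made inside Mcm7 and has the same seed, miR-20a was 1.88 on average in untreated liver and 0.945 at 1 week, with a pooled replicate SD of 0.22. Against miR-106b, of the same locus and seed, it was 3.56 in untreated liver and 1.67 at 1 week, with a pooled replicate SD of 0.42. The 1 week cards lay below the 6 other cards against miR-106a, miR-93 and miR-106b. They did not against miR-20b, which also has this seed, where the Ct differences were 6.53 and 6.79 in untreated liver, 5.97 and 4.98 after 1 week, 6.22 and 6.56 after 4 weeks, and 5.64 and 5.80 after 8 weeks, so that cards of 1 and 8 weeks overlapped.

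The other members of the related clusters were set against untreated liver in the same way. Of 7 assays, miR-18b and miR-363 were determined on 0 cards, and of the 5 tested limma called 0 at 1, 4 and 8 weeks, with 0 at an unadjusted p below 0.05, where 32.5%, 30.1% and 3.01% of all assays were called and 73, 73 and 40 of 166 had such an unadjusted p. Their median log2 difference was -0.12 after 1 week, 0.46 after 4 weeks and 0.32 after 8 weeks. The largest differences were those of miR-25, at 0.73, and miR-106a, at -0.73, both at 8 weeks (limma adjusted p = 0.285 and 0.201). From 1 to 8 weeks miR-106a fell by 1.21 (limma adjusted p = 0.0332), the only call among these 5 in that comparison, where 24.1% of all assays were called and 13.9% called lower.

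Star strands and distant seed relatives gave little to read. The card lists a rat assay for the 3p strand of miR-17, determined on 1 card only, the first untreated one, at Ct 37.09, and one for the 3p strand of miR-20b, determined on 0 cards. Of the relatives of miR-92a outside these clusters, miR-367 was determined on 2 cards and miR-32 on all but the second 8 week card, so neither was tested.

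Marker miRNAs of the cell types of the liver also differed between the groups. The summed level of 6 hepatocyte miRNAs, relative to untreated, was 0.576 to 0.594 after 1 week, 0.339 to 0.380 after 4 weeks and 0.592 to 0.690 after 8 weeks, with 1, 5 and 1 of 6 called lower, where 14.5%, 16.9% and 0.602% of all assays were. miR-122 was not called at any of these times, with mean ratios of 0.440 ± 0.0840 (SD, n = 2) after 1 week, 0.873 ± 0.265 (SD, n = 2) after 4 weeks and 1.15 ± 0.612 (SD, n = 2) after 8 weeks, and its 4 and 8 week cards overlapped the untreated ones. The summed level of 7 leukocyte miRNAs was 0.748 to 1.25 in untreated liver, 3.72 to 3.80 after 1 week, 2.77 to 3.75 after 4 weeks and 1.42 to 2.05 after 8 weeks, with 6, 5 and 0 of 7 called higher, where 18.1%, 13.3% and 2.41% of all assays were. miR-20a was lowest at 1 week, and its cards lay on either side of the untreated ones after 4 weeks. Its relation to the leukocyte markers was not tested.

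The mesenchymal list, of which 5 of 6 were tested, had a summed level of 0.795 to 0.910 after 1 week, 1.09 to 1.31 after 4 weeks and 0.997 to 1.13 after 8 weeks, with 1 of 5 called lower after 1 week (14.5% of all assays) and 2 of 5 called higher after 4 weeks (13.3% of all assays), when 3 of the 5 differences lay above 0 and 2 below. The 2 strands of miR-126, which mark endothelium, had a summed level of 1.46 to 1.53 after 1 week, 0.212 to 0.369 after 4 weeks and 0.392 to 0.699 after 8 weeks, with both called lower after 4 weeks, as were 16.9% of all assays. The erythroid miRNAs miR-451 and miR-486 had a summed level between 0.848 and 1.22 over all 8 cards, with 0 of 2 called against untreated, where 32.5%, 30.1% and 3.01% of all assays were called at 1, 4 and 8 weeks. miR-199a-5p was determined on 1 card. Of the nearest profiles, miR-214 (to miR-18a, 0.420) and miR-143 (to miR-19b, 0.228) belong to the mesenchymal list. At 4 weeks the differences of miR-18a and miR-19b from untreated had opposite signs, at 1.51 and -0.41. The part of these cell types in the values of miR-20a, miR-18a and miR-19b was not tested.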

How the data were processed

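The authors prepared total RNA from whole liver with the mirVana kit. TaqMan Rodent MicroRNA A Cards were run on 500 ng of it after reverse transcription, with no pre-amplification step. The authors deposited raw Ct values, which are in another unit than counts, for each card without normalization or pooling; how Ct thresholds were set is not given in the sources used here. Their deposited fold changes, made from all assays with geometric-mean normalization, were not used. The design text gives 4, 3 and 2 mice for 1, 4 and 8 weeks, the labels give 2 cards per group, and the methods give the dose as a volume where the labels give a mass.

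Each value was a card's mean Ct, taken from 149 assays that were under Ct 35 throughout, less the Ct of the assay. limma 3.58.1 (R 4.3.3) tested the 166 assays that had a Ct on all 8 cards and averaged under 35, using lmFit and two-sided eBayes contrasts from a single model of all groups (prior df 3.47), with Benjamini-Hochberg adjustment over the 166 within each comparison at 0.05. Departures used the same assays with each card centred on the mean of the 6 members. All 6 members, the assays of the 2 related clusters, the seed relatives and the nearest profiles were named by rule. The members and lists were chosen with earlier results of these data known. The number of cards limits the precision. Alternatives were other centrings and control RNAs, other Ct limits, undetermined values set to Ct 40, a replicate block, a trend in eBayes, fits restricted to the compared groups, a 0.10 threshold, and each card left out. Since the files name no genome build, RefSeq GRCm38.p6 served only for sequences and for which hairpins neighbour each other; all 11 tested assays of the 3 clusters matched by name. Plots were drawn with matplotlib 3.10.9.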

Additional observations from a re-analysis of the deposited data

Results flagged for a closer look

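The response of miR-20a differed between times by limma's test of the difference itself: the log2 value was 1.34 higher at 4 weeks than at 1 week (adjusted p = 0.0270), with both 4 week cards above both 1 week cards. The call was lost under 7 of 18 other settings (0.34 with snoRNA202 alone), without the second 1 week card (1.00) and without the first 4 week card (0.89), and the F test over all times did not call miR-20a (limma adjusted p = 0.0564).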

How the results depend on the processing

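Of 410 member differences recomputed under other settings, 335 kept their direction and side of the threshold, 20 lost the call, 18 gained it and 37 changed sign, and of 184 from fits without 1 card these numbers were 160, 12, 1 and 11. The cause was not tested. With 2 cards per group, the limma adjusted p-values of the called member differences lay close to the threshold, from 0.0270 to 0.0457. The call of miR-18a also rests on Ct values near 33.

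Members called at 1 week numbered 6 when scaled to U6 alone, 3 to snoRNA202 alone, and 0 with snoRNA135 alone, quantile normalization, no normalization or undetermined values at Ct 40. At 4 weeks 0 were called with centring on the mean or the geometric mean of everything determined on the card. Nor were any called with the median of the 149 assays below Ct 35 throughout, quantile normalization, snoRNA135 alone, snoRNA202 alone or no normalization. The count was also 0 with a trend in eBayes, Ct 40, or a mean Ct below 32, which left miR-18a untested. From 1 to 4 weeks the count was 6 with U6 alone, 3 with the 3 control RNAs, 2 with snoRNA202 alone or an adjusted p of 0.10, and 0 with the mean or geometric mean of everything determined, snoRNA135 alone, no normalization, Ct 40 or only the groups compared. From 1 to 8 weeks it was 6 with U6 alone, 2 with snoRNA202 alone, and 1 with the 3 control RNAs, an adjusted p of 0.10, a trend or a mean Ct below 32, and for any CCl4 it was 1 with the 3 control RNAs. The F test called 6 members with U6 alone, 3 with the 3 control RNAs, 2 with snoRNA202 alone or a trend, 1 with a mean Ct below 32 or an adjusted p of 0.10, and 4 with the untreated numbers crossed. Without 1 card the counts ran from 0 to 1 at 1 week, at 4 weeks, from 1 to 4 weeks and for any CCl4. Over all assays the calls under other settings ran from 5 to 127 at 1 week (54 in the reported fit; 15 to 59 without 1 card), from 3 to 69 at 4 weeks (50; 22 to 51), from 0 to 17 at 8 weeks (5; 0 to 6), from 29 to 152 from 1 to 4 weeks (78; 30 to 75), from 8 to 154 from 1 to 8 weeks (40; 4 to 49), from 0 to 11 from 4 to 8 weeks (2; 0 to 1), from 2 to 59 for any CCl4 (48; 7 to 46) and from 14 to 157 in the F test (90; 35 to 88, the lowest without the second 1 week card).

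The correlations of the deviations of same-numbered cards ran from -0.50 for untreated and 8 week cards to 0.43 for 4 and 8 week cards, so they did not all lie above 0.1 and the numbers were not read as pairs. With the replicate block the counts of members called were 1 at 1 week, 1 at 4 weeks, 0 at 8 weeks and 1 from 1 to 4 weeks, and it changed no member's call. With the untreated numbers crossed, an alternative added after seeing the data, 2 members were called from 1 to 4 weeks, 2 from 1 to 8 weeks and 1 for any CCl4.

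For departures from the cluster mean, 0 members were called at 1 week, at 4 weeks and from 1 to 4 weeks with miR-17, miR-18a, miR-19a and miR-20a as the reference. At 4 weeks 0 were called with a trend, a mean Ct below 32 or only the groups compared. From 1 to 4 weeks 0 were called with only the groups compared and 2 with a trend or an adjusted p of 0.10, from 1 to 8 weeks 2 with either of these, and for any CCl4 1 at 0.10. Without 1 card the counts ran from 0 to 1 at 1 week, at 4 weeks and for any CCl4, and were 0 from 1 to 4 weeks.

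Signs changed under 9 settings. With U6 alone, at 1 week miR-17 was at -1.95, miR-18a at -1.62 and miR-19a at -2.32, at 4 weeks miR-17 at 1.31, miR-19a at 1.09 and miR-19b at 1.09, at 8 weeks miR-17 at 0.54, miR-19a at 0.86, miR-19b at 0.68 and miR-20a at 0.72, and from 1 to 8 weeks miR-17 at 2.48. With the 3 control RNAs miR-17 was at 0.45, miR-19a at 0.23 and miR-19b at 0.23 at 4 weeks, miR-19a at -0.18 at 1 week, and miR-19a at 0.21, miR-19b at 0.023 and miR-20a at 0.073 at 8 weeks. With snoRNA202 alone miR-19b was at 1.29, miR-92a at 0.96 and miR-20a at 0.085 at 1 week, miR-17 at 0.20 at 4 weeks, and miR-20a at -0.26 from 1 to 8 weeks; with snoRNA135 alone miR-19b was at 0.17 at 1 week. With the mean of everything determined miR-19a was at -0.30 at 1 week, miR-20a at -0.25 at 4 weeks and miR-92a at -0.030 at 8 weeks, with the geometric mean miR-19a was at -0.29 and miR-20a at -0.18, and with the card median miR-20a was at -0.010. Without normalization miR-17 was at -0.085 and miR-19a at -0.46 at 1 week, and miR-20a at -0.81 and miR-92a at -0.13 at 4 weeks. After quantile normalization miR-17 was at 0.26 at 4 weeks and 0.00063 at 8 weeks, and miR-20a at 0.12 at 8 weeks.

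Without 1 card, differences that changed sign ran from -0.45 to 0.073 for miR-17 at 4 weeks, from -0.070 to 0.18, -0.97 to 0.16 and -0.98 to 0.48 for miR-19a at 1, 4 and 8 weeks, from -0.36 to 0.15 for miR-19b at 1 week, from -0.42 to 0.48 for miR-20a at 4 weeks (-0.44 to 0.085 against the cluster mean), and from -0.47 to 0.56 for miR-92a at 8 weeks.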
